A study of Mus musculus with 80 samples.

Results

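The genes described here are those for the shaft of the cilium and for the transport machinery that builds it, as they appeared in RNA from microglia preparations of mouse brain. They were chosen by symbol alone: *Foxj1*, and every listed gene whose symbol begins with the letters of the axonemal dynein (Dnah, Dnai), cilia and flagella associated protein (Cfap), radial spoke (Rsph), tektin (Tekt), Bardet-Biedl syndrome (Bbs) or numbered intraflagellar transport (Ift) families. The rule took 44 of the 15919 genes listed in the sorting experiment and 45 of the 16000 listed in the inhibitor and Dounce experiment, which added *Tekt3*. The 44 were *Foxj1*, 13 axonemal dynein genes, 5 radial spoke genes, 4 tektins, 8 Bbs genes and 13 Ift genes. No symbol began with Cfap, because the tables use older names for that family. The tables also use Dnahc and Dnaic where current nomenclature has Dnah and Dnai. *Foxj1*, the dyneins, the radial spoke genes and the tektins are called the motile axoneme genes below (23 genes, or 24 with *Tekt3*), and the Bbs and Ift genes the trafficking genes (21 genes).

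All mice carried Cx3cr1-cre/ERT2 and NuTRAP, each on 1 allele, and received tamoxifen at about 3 months of age at 100 mg/kg. NuTRAP is a reporter allele that, after Cre has removed a stop cassette, puts eGFP on ribosomes and biotin and mCherry on nuclei. Cx3cr1 drives Cre in microglia and also in other macrophages that express it, so the tag is not limited to parenchymal microglia. TRAP (translating ribosome affinity purification) pulls down the eGFP-tagged ribosomes with their RNA, and Input is the RNA before the pulldown. In the sorting experiment, Input and TRAP were sequenced from half-brain homogenate (Tissue, n = 4), from the enzymatic single-cell suspension (Cell, n = 4), and from cells taken from such suspensions by CD11b magnetic beads (autoMACS, n = 4), beads followed by a cartridge sorter (autoMACS-to-Tyto, n = 3), the cartridge sorter alone (Tyto, n = 5) or a flow sorter (FACSAria, n = 4). The gate of the 2 fluorescence sorters was CD11b+ CD45+ eGFP+. In the inhibitor and Dounce experiment (n = 4 per group), the groups were Tissue, cell suspensions made without or with actinomycin D, triptolide and anisomycin, which block transcription and translation (Cell (-) and Cell (+) Inhibitors), and a suspension made by mechanical homogenization in the cold with a Percoll step (Dounce). Tissue and Cell of the sorting experiment came from the same 4 mice, and the Tissue libraries of the inhibitor and Dounce experiment were made from these 4 mice too, so the Tissue groups of both experiments are not independent. Cell (-) and Cell (+) Inhibitors came from 1 further set of 4 mice, and Dounce from mice of its own. The sorted libraries came from mice other than those of Cell. In every comparison between groups of different mice (sorts with Cell, Cell (-) Inhibitors with Tissue, and Dounce with either), the preparation and the animals cannot be told apart. Some mice gave a half-brain to each of a pair of sorts. Both sexes were used.

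An axoneme is the ring of microtubule doublets that runs through a cilium. Dynein arms on the doublets make a motile cilium beat, radial spokes pass signals from the central pair of microtubules to the dyneins, and tektins are filament proteins inside the doublets. *Foxj1* is a transcription factor that switches on the genes of motile cilia. In brain, tufts of motile cilia are borne by ependymal cells, which line the ventricles and move cerebrospinal fluid, and the choroid plexus epithelium also carries cilia. Primary cilia, which do not beat, are present on many other brain cells. Intraflagellar transport trains carry cargo along both kinds of cilium, and the BBSome, a complex of Bbs proteins, works as an adaptor that moves membrane proteins in and out, so these families are not limited to motile cilia. Regulatory factor X proteins are known to bind an X-box motif near the start of many ciliary genes.

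The promoter windows of members of both kinds are shown, since the motile and trafficking genes are set against each other throughout, and were chosen from named members that hold the X-box half-site searched. The half-site was GTTGCC on either strand, which reads GGCAAC on the other, within 250 bases before to 50 bases after the RefSeq start (GRCm38.p6). Capitals mark the half-site, and positions give its leftmost printed base relative to the start, which is 0. *Dnaic2*, an intermediate chain of the outer dynein arm, holds it at -26 (chr11:114727169-114727468, + strand). *Tekt4* holds it at 8 (chr17:25471340-25471639, + strand). *Ift57*, a subunit of the anterograde transport complex, holds it at -87 and at -60 (chr16:49699044-49699343, + strand), and *Ift172*, another subunit of that complex, at 0 (chr5:31291065-31291364, - strand).
Dnaic2: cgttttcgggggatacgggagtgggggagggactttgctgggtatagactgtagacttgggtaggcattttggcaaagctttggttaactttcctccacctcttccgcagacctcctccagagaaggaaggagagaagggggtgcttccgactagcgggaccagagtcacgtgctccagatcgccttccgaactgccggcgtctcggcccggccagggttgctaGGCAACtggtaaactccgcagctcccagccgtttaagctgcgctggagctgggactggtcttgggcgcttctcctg
Tekt4: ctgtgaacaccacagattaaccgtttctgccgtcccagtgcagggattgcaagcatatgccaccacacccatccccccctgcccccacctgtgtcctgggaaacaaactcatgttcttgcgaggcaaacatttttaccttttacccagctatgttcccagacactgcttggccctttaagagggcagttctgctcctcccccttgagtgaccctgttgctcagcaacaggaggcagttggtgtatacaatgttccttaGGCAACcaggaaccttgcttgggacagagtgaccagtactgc
Ift57: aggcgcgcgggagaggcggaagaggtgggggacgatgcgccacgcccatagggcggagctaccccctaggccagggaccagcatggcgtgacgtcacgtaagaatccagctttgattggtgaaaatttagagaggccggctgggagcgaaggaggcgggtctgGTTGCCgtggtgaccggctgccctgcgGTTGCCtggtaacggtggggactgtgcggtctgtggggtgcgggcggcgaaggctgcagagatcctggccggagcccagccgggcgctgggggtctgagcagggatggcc
Ift172: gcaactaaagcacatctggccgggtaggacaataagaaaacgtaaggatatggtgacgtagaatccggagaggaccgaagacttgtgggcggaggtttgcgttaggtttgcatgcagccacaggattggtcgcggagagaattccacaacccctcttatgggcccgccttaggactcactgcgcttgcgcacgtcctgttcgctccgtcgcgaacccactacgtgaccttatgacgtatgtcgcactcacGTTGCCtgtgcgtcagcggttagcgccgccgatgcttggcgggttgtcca

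RefSeq windows matched 39 of the 45 members. The half-site was present in 16 of these 39 windows (41%), compared with 3821 of 27025 windows over all genes (14.1%). It was found in 8 of 21 motile axoneme windows (38.1%) and in 8 of 18 trafficking windows (44.4%), so its share was similar in both kinds. The forkhead motif GTAAACA, on either strand, was in 2 of 39 windows (5.13%), those of *Dnahc17* and *Tekt3*, against 1095 of all windows (4.05%). These matches describe letters in a window and not bound sites.

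Levels below are in CPM, counts scaled by library size and the TMM factor of each fraction. A gene is said to have risen or fallen where edgeR's quasi-likelihood test gave an adjusted p below 0.1 over all genes tested and the fold change was above 2. Fold changes are given on the log2 scale with their standard error. In bulk RNA, fewer cells of a type and less RNA per cell cannot be told apart. The total count per library was from 7129464 to 20168116 in the sorting experiment (median 15211942) and from 2471448 to 14650287 in the inhibitor and Dounce experiment (median 10179908), with the 4 Dounce-TRAP libraries the shallowest (2471448 to 4724538). Marker lists of 7 cell types (ependymal, choroid plexus, astrocyte, oligodendrocyte, neuron, endothelial and microglia) were counted in the same fits, and their part in the members' values was not tested. When libraries were scaled by the size factors of DESeq2 instead, the median log2 fold change over all genes moved by over 0.1 in 5 comparisons: by -0.21 for sorted Input against Cell-Input, -0.33 for Cell-TRAP against Tissue-TRAP, -0.23 for Dounce-TRAP against Dounce-Input, and 0.13 and 0.12 for TRAP against Input of Cell (-) and Cell (+) Inhibitors.

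A few libraries stood apart in these genes. FACSAria-Input replicate 4 was above all 15 other sorted Input libraries in 16 of the 23 motile axoneme genes and in 2 of the 21 trafficking genes, at a median of 27.3% and 62.4% of the Cell-Input mean, respectively. The 62.4% does not by itself mark a rise over the other sorted libraries. *Bbs1* was at 6.75 CPM in this library and at a median of 6.52 CPM in the other 15, and *Bbs4* at 8.42 and 9.03 CPM. For *Foxj1* these values were 23.4 and 0.62 CPM. The summed level of 11 ependymal markers that are not members was 47 CPM in FACSAria-Input replicate 4, compared with 3.23 to 6.61 CPM in the other sorted Input libraries. Its summed choroid plexus markers were 894 CPM, compared with 20.02 to 460 CPM. The other half-brain of the same mouse went to Tyto replicate 1, where *Foxj1* was at 0.79 CPM. Cell-Input replicate 2 was low in the motile axoneme genes, with a sum of 209 CPM beside 347 to 365 CPM in the other 3. Cell-Input (-) Inhibitors replicate 3 was high, with a sum of 766 CPM beside 340 to 469 CPM in the other 3 libraries of its group. Counts of members called in comparisons that use these libraries are given with and without them.

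The first comparison asked what dissociation into single cells did to the representation of these genes. In the cell suspension before any sort, 12 of the 44 genes rose relative to tissue homogenate and 3 fell, and all 12 that rose were motile axoneme genes. Over all 15750 genes tested, 28.5% rose and 17.5% fell. Among the motile axoneme genes 12 of 23 rose and 2 fell, with a median log2 fold change of 1.43, compared with 0.17 over all genes. Among the trafficking genes none of 21 rose and 1 fell, with a median of -0.13. Without Cell-Input replicate 2 the counts were 13 higher and 3 lower.

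*Foxj1* (Gene ID 15223, chr11:116330704-116335354, - strand, mm10) was at 20.7, 18.1, 15.2 and 13.5 CPM in the 4 Tissue-Input libraries and at 107, 66.1, 110 and 109 CPM in the 4 Cell-Input libraries. All Cell-Input libraries were above all Tissue-Input libraries, and replicate 2 was the lowest of its group. The log2 fold change was 2.54 ± 0.687 (SE), with an adjusted p of 0.00229. The shared estimate of spread in this fit included FACSAria-Input replicate 4, and in the inhibitor and Dounce experiment, which lacks that library, the standard error of the matching contrast was 0.225.

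**Figure D1:**
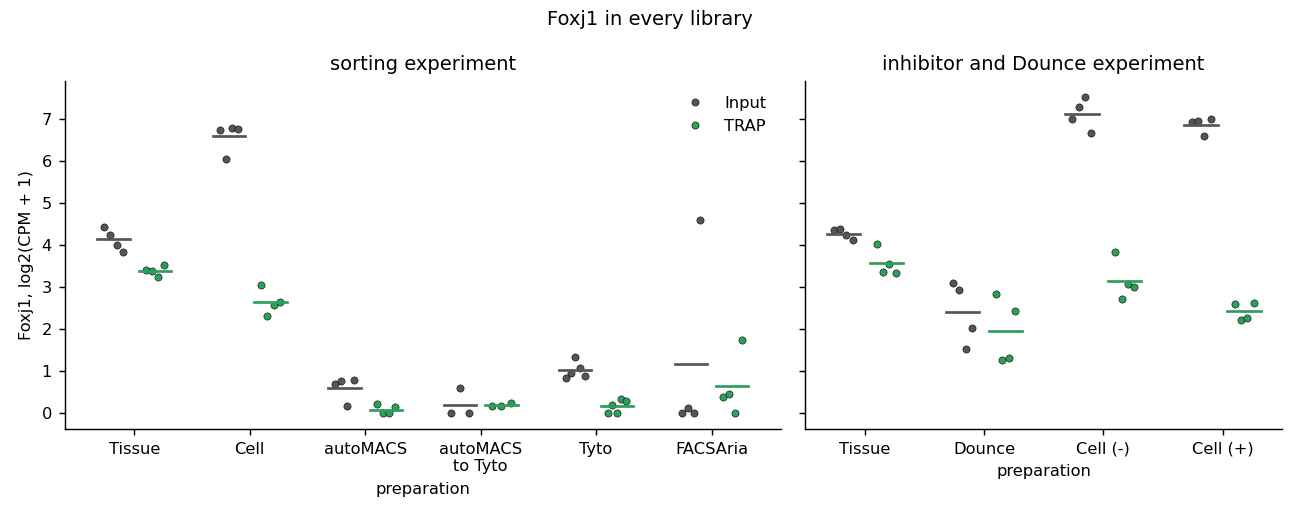
Level of *Foxj1* in each library as log2(CPM + 1), for Input (grey) and TRAP (green), by preparation. Points are libraries and bars are group means. The Cell-Input libraries of both experiments sit above their Tissue-Input libraries, the sorted libraries sit near 0, and 1 FACSAria mouse stands apart in both fractions (23.4 CPM in Input and 2.34 CPM in TRAP).

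The dynein genes followed, with 7 of 13 higher and 1 lower. *Dnaic2* was at 1.87, 2.37, 2.92 and 2.21 CPM in Tissue-Input and at 14.3, 9.08, 16.9 and 14.8 CPM in Cell-Input. The groups did not overlap, and the log2 fold change was 2.55 ± 0.532 with an adjusted p of 0.000231. *Dnaic1*, another intermediate chain, rose by 1.92 ± 0.514 (adjusted p = 0.00211). Among the heavy chains, the motor subunits themselves, *Dnahc6* rose by 2.21 ± 0.709 (adjusted p = 0.00884), *Dnahc8*, named after its values were seen, by 1.93 ± 0.685 (adjusted p = 0.0154) and *Dnahc9* by 1.64 ± 0.653 (adjusted p = 0.0296). *Dnahc9* did not pass with DESeq2 (adjusted p = 0.105) or limma (adjusted p = 0.128). *Dnahc1* went the other way, with a log2 fold change of -1.21 ± 0.425 (adjusted p = 0.0148). The rise of *Dnahc8* was not repeated in the inhibitor and Dounce experiment. In the same 4 mice its Tissue-Input level was 0.408 ± 0.184 CPM (SD, n = 4) in the sorting experiment and 1.37 ± 0.911 CPM in the other. In that other experiment Cell-Input (-) Inhibitors was at 0.983 ± 0.427 CPM, which is not above Tissue-Input.

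Of the 5 radial spoke genes, 2 rose. *Rsph1*, which encodes a protein of the spoke head, was at 9.72, 9.34, 6.56 and 6.16 CPM in Tissue-Input and at 45.2, 22.8, 48.3 and 52.4 CPM in Cell-Input. The groups did not overlap (log2 fold change 2.41 ± 0.601, adjusted p = 0.00112). *Rsph4a*, another spoke head gene, had a log2 fold change of 3.04 ± 0.723 (adjusted p = 0.000707), the largest among the 44. *Rsph9* and *Rsph3b* did not pass, with log2 fold changes of 0.54 ± 0.424 (adjusted p = 0.264) and -0.11 ± 0.111 (adjusted p = 0.394).

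The tektins divided. *Tekt1* was at 3.90, 2.79, 3.28 and 2.41 CPM in Tissue-Input and at 18, 7.88, 17.4 and 19.3 CPM in Cell-Input, without overlap (log2 fold change 2.34 ± 0.613, adjusted p = 0.00194), and *Tekt4* rose by 1.70 ± 0.613 (adjusted p = 0.0178). *Tekt5*, known chiefly as a tektin of the sperm flagellum, was at 9.56, 9.55, 9.02 and 9.58 CPM in Tissue-Input and at 2.34, 1.58, 1.33 and 1.64 CPM in Cell-Input. All Cell-Input libraries were below all Tissue-Input libraries (log2 fold change -2.45 ± 0.419, adjusted p = 4.46e-05). *Tekt2* did not pass (-0.51 ± 0.659, adjusted p = 0.498).

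Among the trafficking genes, *Bbs4*, a BBSome subunit, was the 1 that fell. It was at 49.7, 53, 47.8 and 52 CPM in Tissue-Input and at 16.4, 12.5, 15.9 and 15.8 CPM in Cell-Input, without overlap (log2 fold change -1.74 ± 0.134, adjusted p = 7.41e-11). *Ift172* was at 49, 41.6, 51.3 and 56 CPM in Tissue-Input and at 47, 40.2, 41 and 40.6 CPM in Cell-Input, where the groups overlapped (log2 fold change -0.23 ± 0.112, adjusted p = 0.0711). *Ift57* was at 45.6, 39.8, 40.9 and 41.5 CPM in Tissue-Input and at 39, 31.4, 38.4 and 35.8 CPM in Cell-Input (-0.21 ± 0.214, adjusted p = 0.379). *Bbs9*, another BBSome subunit, differed below the fold threshold (0.61 ± 0.110, adjusted p = 3.20e-05).

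The partner genes and the cell type markers split in the same way. Of 39 motile cilium partner genes that are not members (assembly factors, docking and central pair genes), 25 rose and 1 fell, and of 37 partners in ciliary trafficking and the transition zone 3 rose and 5 fell. All 11 ependymal markers tested rose (median 2.83), and so did all 14 choroid plexus markers (median 3.06). The summed ependymal markers were at 22.5 to 27.0 CPM in Tissue-Input and 128 to 227 CPM in Cell-Input, and the summed choroid plexus markers at 1042 to 1405 CPM and 3577 to 9184 CPM. In Cell-Input replicate 2 both sums were the lowest of the group. Neuron markers fell (5 of 5), and markers of microglia (6 of 6), oligodendrocytes (5 of 5), endothelial cells (4 of 4) and astrocytes (4 of 6) rose.

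The second comparison asked what remained after a sort. In sorted Input compared with Cell-Input (the mean of the 4 sorts), 28 of 44 genes fell and 3 rose, against 34.7% and 17.1% of all genes tested. Of the 23 motile axoneme genes 20 fell and 1 rose. Of the 21 trafficking genes 8 fell and 2 rose. The counts over the 44 were the same without FACSAria-Input replicate 4, and were 29 lower and 3 higher without Cell-Input replicate 2. In 16 of the 23 motile axoneme genes at least 8 of the 16 sorted libraries held 3 counts or fewer, so that the fitted fold changes of these genes depend on the prior count. With each sorted library set to at least 3 counts, the median log2 ratio of sorts to Cell-Input was -3.57 for the motile axoneme genes and -0.76 for the trafficking genes, and the fitted median over all genes was -0.09.

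**Figure D2:**
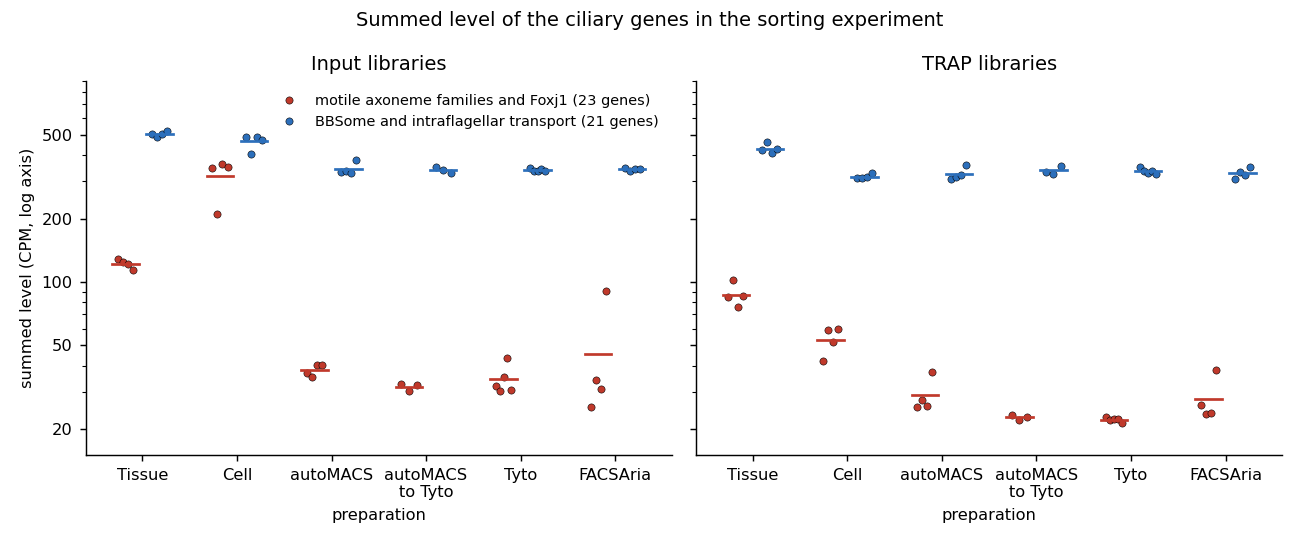
Summed level in CPM (log axis) of the 23 motile axoneme genes (red) and of the 21 trafficking genes (blue) in each Input library (left) and TRAP library (right) of the sorting experiment. Points are libraries and bars are group means. In Input the motile sum was 114 to 128 CPM in Tissue, 209 to 365 CPM in Cell and 25.3 to 43.7 CPM in sorted libraries other than FACSAria replicate 4, which was at 90.4 CPM. The trafficking sum was 488 to 522 CPM in Tissue, 407 to 489 CPM in Cell and 328 to 378 CPM in the sorted libraries, all of them below Cell.

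*Foxj1* was at 0.620, 0.704, 0.133 and 0.735 CPM in the autoMACS-Input libraries and at 0, 0.529 and 0 CPM in autoMACS-to-Tyto. It was at 0.790, 0.940, 1.54, 1.13 and 0.863 CPM in Tyto and at 0, 0.102, 0 and 23.4 CPM in FACSAria. All 16 were below all Cell-Input libraries, and the FACSAria library at 23.4 CPM, which is 23.9% of the Cell-Input mean of 97.9 CPM, was the 1 sorted library above the Tissue-Input range of 13.5 to 20.7 CPM. The adjusted p was 1.59e-10, and the log2 ratio at the floor of 3 counts was -5.58. *Rsph1* (log2 ratio at the floor -5.65), *Dnaic2* (-5.28), *Tekt1* (-5.27) and *Rsph4a* (-5.15) were near 0 in the same way.

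*Rsph1* was at 0.155, 0.117, 0 and 0 CPM in autoMACS, at 0.109, 0 and 0 CPM in autoMACS-to-Tyto, at 0.461, 0.564, 0.769, 1.13 and 0.314 CPM in Tyto, and at 0, 0, 0.192 and 7.34 CPM in FACSAria. *Dnaic2* was at 3 counts or fewer in 12 of the 16 sorted libraries and at 0 in 8 of them. *Tekt5* was at 3 counts or fewer in all 16 and at 0 in 13. A count of 0 here means that the transcript was not detectable at this depth.

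Some members did not follow. *Rsph3b* was at 18 to 20.5 CPM in Cell-Input and at 13.2 to 19.7 CPM in the sorted libraries (log2 fold change -0.22 ± 0.0878, adjusted p = 0.0234), and its near-identical neighbour on chromosome 17, *Rsph3a*, differed by 0.17 (adjusted p = 0.424). Reads of this pair can be split between the copies: in the same 4 mice, Tissue-Input *Rsph3a* was 7.13 ± 1.09 CPM (SD, n = 4) in the sorting experiment and 20.2 ± 2.19 CPM in the other, while *Rsph3b* was 21 ± 1.28 and 16.6 ± 1.14 CPM. Without this pair the motile sum was 5.55 to 22.9 CPM in sorted Input other than FACSAria replicate 4 (67.9 CPM), and 186 to 336 CPM in Cell-Input. *Dnahc7a* and *Dnahc7b* are a similar pair and their individual values are uncertain.

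*Dnahc17* was the motile axoneme gene that rose on sorting (log2 fold change 2.05 ± 0.727, adjusted p = 0.0129). It was at 0.844, 0.252, 1.22 and 0.294 CPM in Cell-Input, at 1.86, 1.82, 13.7 and 6.12 CPM in autoMACS, at 2.07, 0.793 and 4.11 CPM in autoMACS-to-Tyto, at 0.461, 1.32, 1.71, 10.9 and 1.02 CPM in Tyto, and at 1.80, 1.23, 0.962 and 1.66 CPM in FACSAria. The groups overlapped, and 1 or 2 libraries of autoMACS and Tyto were far above the rest.

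More of the trafficking genes fell than rose on sorting, and the rest were not called. *Bbs9* was at 19.5, 20.7, 24.9 and 24 CPM in Cell-Input and rose to 46.5 to 72.8 CPM in the 16 sorted libraries, with no overlap (log2 fold change 1.34 ± 0.0929, adjusted p = 3.16e-12). *Bbs12*, which encodes a chaperonin-like protein that helps to assemble the BBSome and which was chosen after its values were seen, also rose (1.22 ± 0.239, adjusted p = 6.09e-05). *Bbs1*, a core BBSome subunit, fell by 2.08 ± 0.110 (adjusted p = 2.13e-14).

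*Ift57* was at 31.4 to 39 CPM in Cell-Input and at 3.37 to 10.2 CPM in the sorted libraries, without overlap (log2 fold change -2.68 ± 0.160, adjusted p = 2.05e-13). *Ift122*, of the retrograde complex, fell by 1.92 ± 0.132 (adjusted p = 2.75e-12). *Ift172* was at 40.2 to 47 CPM in Cell-Input and at 41 to 71.4 CPM in the sorted libraries, a difference of 0.48 ± 0.0923 that was below the fold threshold (adjusted p = 5.09e-05). Subunits that work in 1 complex thus went from a fall to no called change. Per kilobase of the longest annotated transcript, *Foxj1* (37.3 CPM per kb) and *Rsph1* (35.4) had the highest means of the 44 genes in Cell-Input, while in FACSAria-Input they were at 2.24 and 1.58 CPM per kb, mostly from replicate 4, and *Bbs9* was at 16 and *Ift172* at 11.5 CPM per kb.

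Ependymal markers (0 higher and 11 lower of 11) and choroid plexus markers (0 and 14 of 14) fell on sorting with the motile axoneme genes, as did 33 of the 39 motile partners. Of the 37 trafficking partners 1 rose and 17 fell. All markers of astrocytes (6), oligodendrocytes (5), neurons (5) and endothelial cells (4) fell too, and all 6 microglia markers rose (median 2.67).

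Among the 4 sort methods, 7 of the 44 genes differed in Input, compared with 7.42% of all genes. All 7 were motile axoneme genes: *Foxj1* (adjusted p = 0.0426), *Rsph1* (0.0431), *Rsph4a* (0.0625), *Dnaic1* (0.0820), *Dnahc1* (0.0391), *Dnahc5* (0.0529) and *Dnahc11* (0.0644), the last 3 of them named after their values were seen. A fit to the sorted groups alone called 0 of the 27 members it tested. Of the 7, only *Foxj1* held more than 5 counts in every library of a sorted group, so that fit did not test the others. Without FACSAria-Input replicate 4, which held the highest levels, 3 of the 7 remained in the main fit (*Foxj1*, *Rsph1* and *Dnahc1*). The count of 7 thus rested in large part on 1 library. The test among the sorts did not take into account the mice that pairs of sorts shared. In the remaining libraries *Foxj1* was at 0.790 to 1.54 CPM in all 5 Tyto libraries and at 0 to 0.735 CPM in the other sorts, without overlap. In the same libraries the summed oligodendrocyte markers were at 215 to 622 CPM in Tyto-Input and at 106 to 190 CPM in the other sorts, also without overlap. FACSAria-Input replicate 4 was at 319 CPM. The other marker lists did not split in this way. Without that library the summed ependymal markers were at 3.23 to 4.87 CPM in Tyto-Input and at 3.79 to 6.61 CPM in the other sorts. Sums of choroid plexus, astrocyte, neuron, endothelial and microglia markers also overlapped between Tyto-Input and the other sorts. The part of any of these cell types in the *Foxj1* values was not tested.

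TRAP gave a different order from Input. In Cell-TRAP compared with Tissue-TRAP, 2 of 41 genes tested rose and 14 fell, against 25.1% and 29.3% of all genes. *Foxj1* was at 9.65, 9.43, 8.49 and 10.5 CPM in Tissue-TRAP and at 7.28, 3.98, 4.99 and 5.25 CPM in Cell-TRAP. All Cell-TRAP libraries were below all Tissue-TRAP libraries, yet the gene did not pass (log2 fold change -0.82 ± 0.489, adjusted p = 0.125). It passed with DESeq2's size factors (-1.15, adjusted p = 0.0328), with limma (-1.29, adjusted p = 0.0635) and without Cell-TRAP replicate 1 (-1.03, adjusted p = 0.0851). *Tekt5* was at 8.60, 9.99, 6.73 and 7.31 CPM in Tissue-TRAP and at 0.0714 to 0.172 CPM in Cell-TRAP (adjusted p = 2.94e-09). All 4 Cell-TRAP libraries held 3 counts or fewer of *Tekt5*.

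*Bbs9* rose in Cell-TRAP, from 17.9, 24, 21.5 and 20.6 CPM in Tissue-TRAP to 38.7, 48, 48.5 and 52 CPM (1.16 ± 0.0909, adjusted p = 1.66e-11). *Dnahc5* was the other gene that rose (1.48 ± 0.786, adjusted p = 0.0869). *Ift57* fell from 32.3, 37.5, 31.3 and 32.4 CPM to 8.56, 4.46, 6.71 and 7.91 CPM (-2.27 ± 0.180, adjusted p = 2.13e-11), and *Bbs4* fell by 2.02 ± 0.148 (adjusted p = 3.96e-12). For *Bbs9*, *Bbs4* and *Ift57* the Tissue-TRAP and Cell-TRAP libraries did not overlap. Neither of the calls of a rise held under all settings. *Bbs9* was below the fold threshold with DESeq2's size factors (0.82), DESeq2 (0.83) and limma (0.72), and the counts over the members were then 0 higher and 20, 19 and 25 lower. *Dnahc5* did not pass in these 3 fits (adjusted p = 0.176, 0.483 and 0.439), without the filter on low counts (adjusted p = 0.101), or without any 1 of Tissue-TRAP replicates 1, 3 and 4 (log2 fold changes 1.43, 1.28 and 1.57) and Cell-TRAP replicates 2 and 4 (0.87 and 1.41). In this comparison 1 of 6 ependymal, 2 of 13 choroid plexus, 3 of 6 astrocyte, 2 of 5 oligodendrocyte and 5 of 5 neuron markers fell, and 4 of 4 endothelial and 6 of 6 microglia markers rose.

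The motile axoneme genes were lower still in TRAP after a sort. Of 41 genes tested 16 fell in sorted TRAP compared with Cell-TRAP and none rose, against 23.6% and 0.829% of all genes, and all 16 were among the 20 motile axoneme genes tested. *Foxj1* was at 0 to 0.382 CPM in 15 of the 16 sorted TRAP libraries and at 2.34 CPM in FACSAria replicate 4, below all Cell-TRAP libraries (adjusted p = 1.06e-09). None of the 21 trafficking genes was called, and their median log2 fold change was 0.02. The count was the same without FACSAria-TRAP replicate 4. In 17 of the 23 motile axoneme genes at least 8 of the 16 sorted TRAP libraries held 3 counts or fewer, so their fitted fold changes depend on the prior count. With each sorted library set to at least 3 counts, the median log2 ratio of sorts to Cell-TRAP was -1.77 for the motile axoneme genes. For the trafficking genes it was 0.03. Of the ependymal and choroid plexus markers 5 of 6 and 13 of 13 tested fell, as did 6 of 6 astrocyte, 4 of 5 oligodendrocyte, 5 of 5 neuron and 3 of 4 endothelial markers.

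The third comparison set TRAP against Input within a preparation. In Tissue 0 of 44 members were higher in TRAP and 3 lower (*Rsph1*, *Tekt4* and *Dnahc5*), against 9.02% and 3.26% of all genes. *Rsph1* was at 3.07, 4.78, 2.31 and 2.40 CPM in Tissue-TRAP, all below its Tissue-Input values (-1.20 ± 0.319, adjusted p = 0.00614). *Foxj1* was lower by less than the fold threshold (-0.68 ± 0.186, adjusted p = 0.00773). *Tekt4* did not reach the fold threshold without any 1 of Tissue-Input replicates 1 (-0.99) and 2 (-0.93) and Tissue-TRAP replicates 1 (-0.98) and 3 (-0.99). In the same comparison 6 of 11 ependymal, 8 of 14 choroid plexus and 5 of 5 oligodendrocyte markers were lower in TRAP, and 4 of 4 endothelial, 1 of 6 astrocyte and 6 of 6 microglia markers were higher (microglia median 4.37).

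In Cell the gap was wider. There 26 of 44 members were lower in TRAP than in Input and 1 was higher, against 33.2% and 14.9% of all genes, with 18 of 23 motile axoneme genes lower (median -2.17) and 8 of 21 trafficking genes lower (median -0.60). Without Cell-Input replicate 2 the counts were 27 lower and 1 higher. *Foxj1* was 97.9 ± 21.2 CPM in Cell-Input and 5.38 ± 1.38 CPM in Cell-TRAP (SD, n = 4 each), a log2 fold change of -3.98 ± 0.201 (adjusted p = 4.14e-12). *Dnaic2* (-3.98 ± 0.343, adjusted p = 6.00e-09) and *Rsph1* (-4.26 ± 0.338, adjusted p = 1.91e-09) fell to a similar degree.

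*Bbs9* was the member higher in Cell-TRAP (1.27 ± 0.106, adjusted p = 4.12e-09), although below the fold threshold with limma (0.86), and *Ift172* stayed below the fold threshold (0.52 ± 0.164, adjusted p = 0.00738). All 11 ependymal and all 14 choroid plexus markers were lower in Cell-TRAP than in Cell-Input, as were 6 of 6 astrocyte, 5 of 5 oligodendrocyte and 4 of 5 neuron markers, and all 6 microglia markers higher.

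The difference of these differences was tested as an interaction. The TRAP to Input ratio was lower in Cell than in Tissue for 23 of 44 members and higher for none, against 32.7% and 5.23% of all genes. Without Cell-Input replicate 2 it was lower for 25. Of the 23, 16 were motile axoneme genes and 7 trafficking genes. The median over all genes was -0.33, and over the members -1.05. For *Foxj1* the interaction was -3.31 ± 0.271 (adjusted p = 1.43e-08). The same term was negative for all 6 microglia markers too (median -1.73), 10 of 11 ependymal, 14 of 14 choroid plexus, 6 of 6 astrocyte, 5 of 5 oligodendrocyte, 5 of 5 neuron and 4 of 4 endothelial markers.

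**Figure D3:**
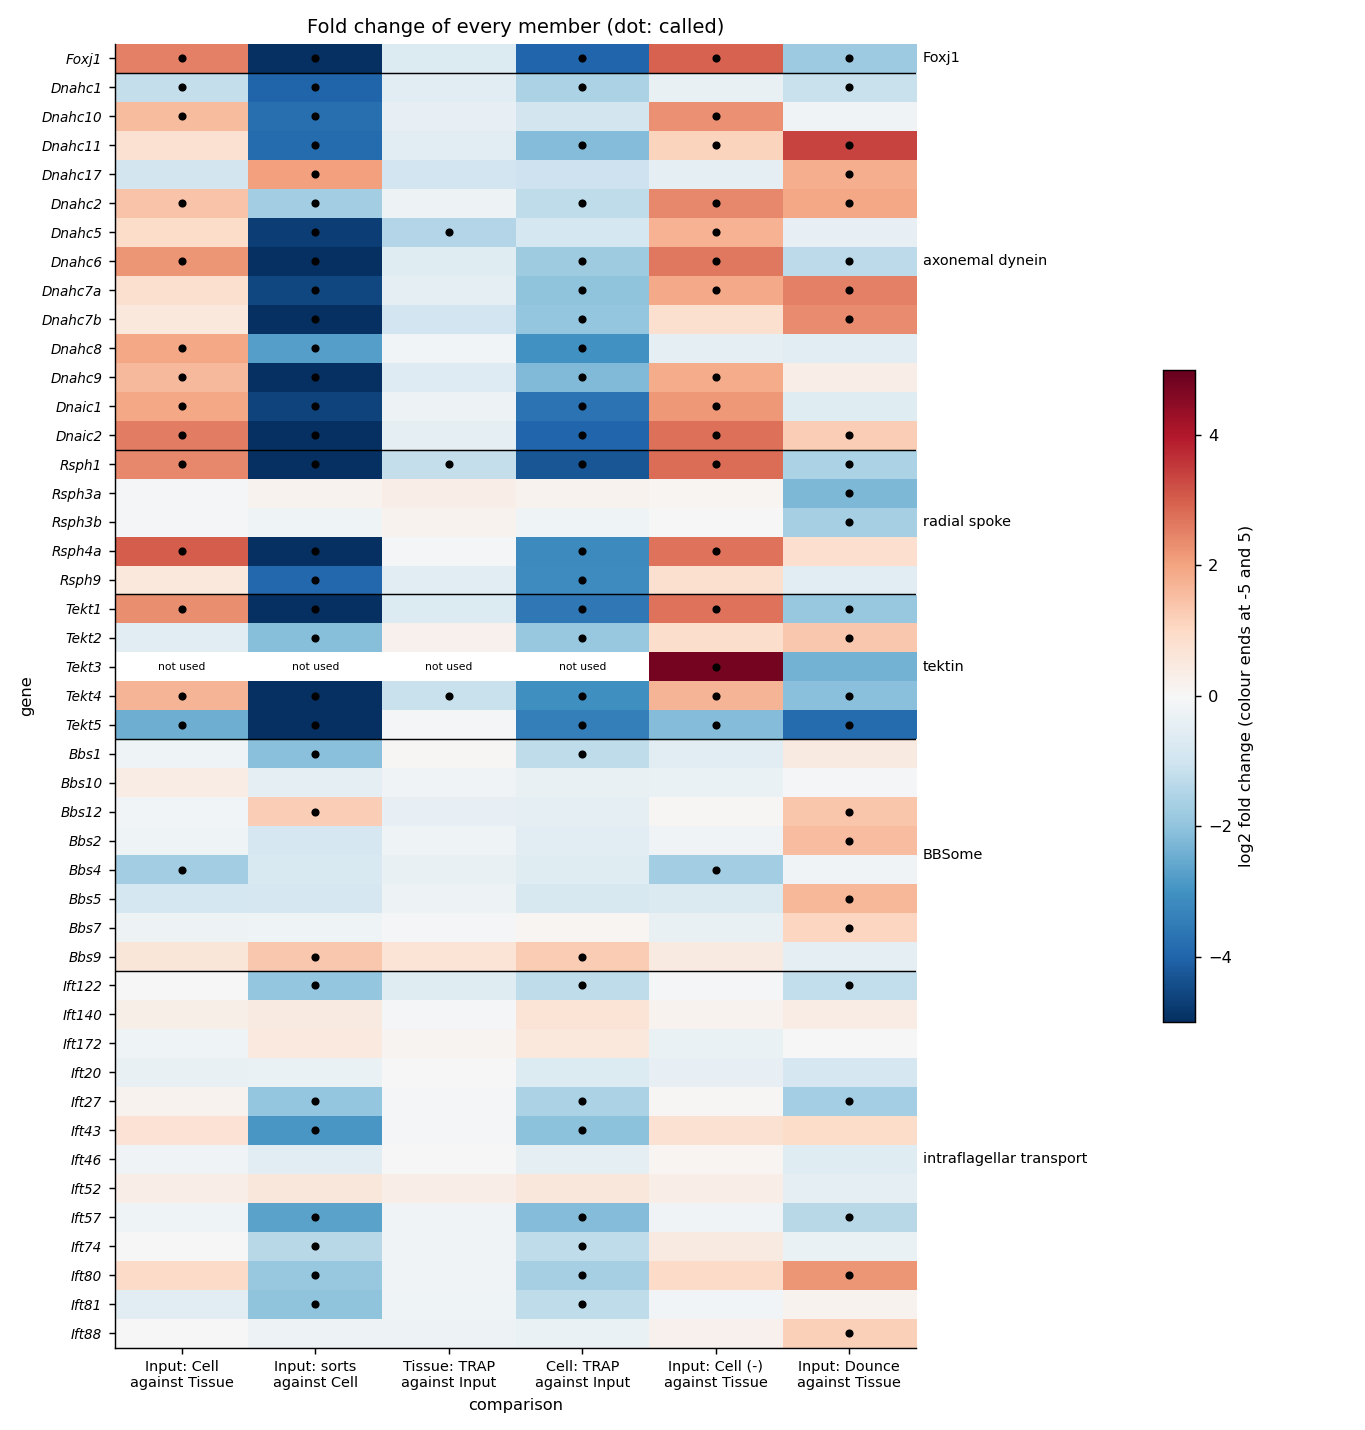
Log2 fold change of each member in 6 comparisons (4 of the sorting experiment, then 2 of the inhibitor and Dounce experiment), coloured from -5 (blue) to 5 (red), with a dot where the gene was called. Rows are grouped by family. Most dynein rows and *Foxj1*, *Rsph1*, *Rsph4a*, *Tekt1* and *Tekt4* turn from red in Cell against Tissue to blue in sorts against Cell and in TRAP against Input of Cell, while most Bbs and Ift rows stay pale.

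The inhibitor and Dounce experiment gave a second suspension from other mice. In Cell-Input (-) Inhibitors compared with Tissue-Input, 15 of 45 members rose and 2 fell, against 25.6% and 19.1% of all genes. The 15 were all motile axoneme genes (of 24, median 1.79), and the 2 that fell were *Tekt5* and *Bbs4*. *Foxj1* was at 19.5, 20.1, 17.9 and 16.4 CPM in Tissue-Input and at 128, 155, 185 and 101 CPM in Cell-Input (-) Inhibitors. The groups were far apart (log2 fold change 2.94 ± 0.225, adjusted p = 6.24e-10).

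*Rsph1* was at 9.75, 11.4, 8.42 and 6.74 CPM in Tissue-Input and at 51.3, 66.8, 95.7 and 39.8 CPM in Cell-Input (-) Inhibitors (2.80 ± 0.242, adjusted p = 3.63e-09). *Bbs4* was at 68.7, 65.3, 65.9 and 57.5 CPM and then at 18, 18.8, 21.3 and 18.4 CPM (-1.75 ± 0.136, adjusted p = 7.93e-10). For both genes the groups did not overlap. Without replicate 3 of the suspension, 12 members rose and 3 fell. Markers rose in 11 of 11 for ependymal cells, 14 of 14 for choroid plexus, 3 of 6 for astrocytes, 5 of 5 for oligodendrocytes, 4 of 4 for endothelial cells and 6 of 6 for microglia, and 5 of 5 neuron markers fell. For this experiment the study describes stronger 3' bias in Tissue and Dounce libraries of both fractions than in either suspension, and its part in comparisons of a suspension with Tissue or Dounce was not tested.

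The inhibitors were compared within the suspensions. In Input 0 of 45 members passed edgeR's test between Cell (+) and Cell (-) Inhibitors, against 0% higher and 0.311% lower over all genes. Of the 45, 6 had an unadjusted p below 0.05, and DESeq2 and limma also called 0. Without Cell-Input (-) Inhibitors replicate 3 the count was again 0. *Foxj1* was at 122, 123, 95.9 and 127 CPM with inhibitors, where the groups overlapped and replicate 3 was below all libraries without inhibitors (-0.28 ± 0.202). The median over the motile axoneme genes was -0.50. No marker of the 7 lists passed, and 1 ependymal and 1 oligodendrocyte marker had an unadjusted p below 0.05.

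In TRAP 0 of 41 passed, against 0.00679% higher and 0.638% lower, with 4 at an unadjusted p below 0.05 and 0 by DESeq2 and limma. *Foxj1* was at 13.3, 5.62, 7.45 and 7.01 CPM without and at 5.11, 3.68, 3.87 and 5.18 CPM with inhibitors (-0.90 ± 0.371, adjusted p = 0.416), with all 4 libraries with inhibitors below those without. With the mouse as a block, *Rsph1* and *Rsph4a* passed, both lower with inhibitors (log2 fold changes -1.14, adjusted p = 0.0324, and -1.17, adjusted p = 0.0807). Ependymal and oligodendrocyte markers lay in the same direction in TRAP, without passing the test. All 8 ependymal markers tested had a negative log2 fold change (median -1.01, 1 at an unadjusted p below 0.05), and their sum was at 9.81 to 30.5 CPM without and 7.82 to 12.0 CPM with inhibitors. All 5 oligodendrocyte markers did too (median -0.86, 4 at an unadjusted p below 0.05), with sums of 309 to 1118 CPM and 306 to 444 CPM. The microglia median was 0.07. Mean sums of astrocyte and choroid plexus markers were lower with inhibitors (1093 and 473 CPM) than without (1244 and 634 CPM). Those of endothelial and neuron markers were higher with inhibitors (619 and 98.2 CPM) than without (574 and 89.6 CPM). In all of these lists the groups overlapped. The part of these markers' cells in the blocked result was not tested.

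In TRAP of the suspension without inhibitors, 3 of 41 members rose and 11 fell compared with Tissue-TRAP, against 22.3% and 30.8% of all genes. There 3 of 8 ependymal, 2 of 13 choroid plexus, 4 of 4 endothelial and 6 of 6 microglia markers rose, and 1 choroid plexus, 4 of 6 astrocyte, 1 of 5 oligodendrocyte and 5 of 5 neuron markers fell. TRAP against Input in the same suspension gave 33 of 45 members lower and 0 higher without inhibitors (36.7% and 10.6% of all genes), and 33 lower and 0 higher with them (35.8% and 9.71%). Without Cell-Input (-) Inhibitors replicate 3 the former count was 30 lower and 0 higher. *Foxj1* fell by 4.05 ± 0.288 (adjusted p = 1.58e-13) and by 4.69 ± 0.305 (adjusted p = 2.05e-14), respectively. In Tissue of this experiment 4 members were lower in TRAP and 0 higher, against 2.3% and 8.21% of all genes. The difference between suspension and tissue in this ratio was not tested in this experiment. In both suspensions all 11 ependymal, 14 choroid plexus, 6 astrocyte, 5 oligodendrocyte and 5 neuron markers and 1 of 4 endothelial markers were lower in TRAP, and all 6 microglia markers higher.

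In the Dounce preparation members of the same family went in opposite directions. In Dounce-Input compared with Tissue-Input 13 of 45 members rose and 12 fell, against 28.7% and 21.4% of all genes. Of the 24 motile axoneme genes 7 rose and 9 fell, and of the 21 trafficking genes 6 rose and 3 fell. The study describes the RNA of Dounce-Input as the least intact, and the part of this in the values below was not tested.

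*Foxj1* was at 7.64, 6.66, 1.92 and 3.07 CPM in Dounce-Input, all below the 16.4 to 20.1 CPM of Tissue-Input (-1.82 ± 0.266, adjusted p = 4.41e-06). *Rsph1* was at 1.96, 3.79, 2.68 and 3.76 CPM (-1.58 ± 0.298, adjusted p = 9.07e-05) and *Tekt1* at 0.723, 1.02, 1.15 and 1.37 CPM (-1.89 ± 0.340, adjusted p = 5.20e-05). All 4 Dounce-Input libraries were below all 4 Tissue-Input libraries for each of these genes. Ependymal markers (0 higher, 7 lower of 11) and choroid plexus markers (0 higher, 10 lower of 14) were lower too, as were 2 of 6 astrocyte, 3 of 5 neuron and 3 of 4 endothelial markers. The summed neuron markers were at 6592 to 6798 CPM in Tissue-Input and 3213 to 3510 CPM in Dounce-Input. Microglia markers rose (6 of 6), from sums of 244 to 271 CPM to 1594 to 2561 CPM, and so did 3 of 5 oligodendrocyte markers.

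Several dynein genes went up. *Dnahc11*, a heavy chain of the outer arm, was at 4.52, 3.85, 3.58 and 4.83 CPM in Tissue-Input and at 41.1, 46.5, 40.3 and 46.5 CPM in Dounce-Input. These were above all other Input libraries of that experiment, and the log2 fold change was 3.37 ± 0.310 (adjusted p = 8.63e-09). *Dnahc17* was at 1.71, 3.25, 2.21 and 1.80 CPM and then at 8.78, 7.48, 7.48 and 7.86 CPM (1.82 ± 0.357, adjusted p = 0.000136). *Dnaic2* was at 3.92, 3.73, 4.11 and 2.13 CPM and then at 6.09, 6.96, 11.3 and 8.88 CPM (1.23 ± 0.279, adjusted p = 0.000586).

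*Dnahc7b* was at 5.23, 5.90, 5.79 and 4.60 CPM in Tissue-Input and at 26.5, 37.8, 20.1 and 25.3 CPM in Dounce-Input (2.36 ± 0.285, adjusted p = 3.83e-07). In all 4 of these dynein genes the Dounce libraries were above all Tissue libraries. *Dnahc1* and *Dnahc6* were the dyneins that fell (-1.13 ± 0.456, adjusted p = 0.0321, and -1.31 ± 0.546, adjusted p = 0.0369). Leaving out 1 library could end either call. *Dnahc1* was below the fold threshold without Dounce-Input replicate 3 (-0.99) or 4 (-0.85), and *Dnahc6* did not pass without Tissue-Input replicate 3 (-1.08, adjusted p = 0.107). *Tekt2* rose (1.34 ± 0.387, adjusted p = 0.00412) while *Tekt5* fell (-3.83 ± 0.374, adjusted p = 1.98e-08).

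**Figure D4:**
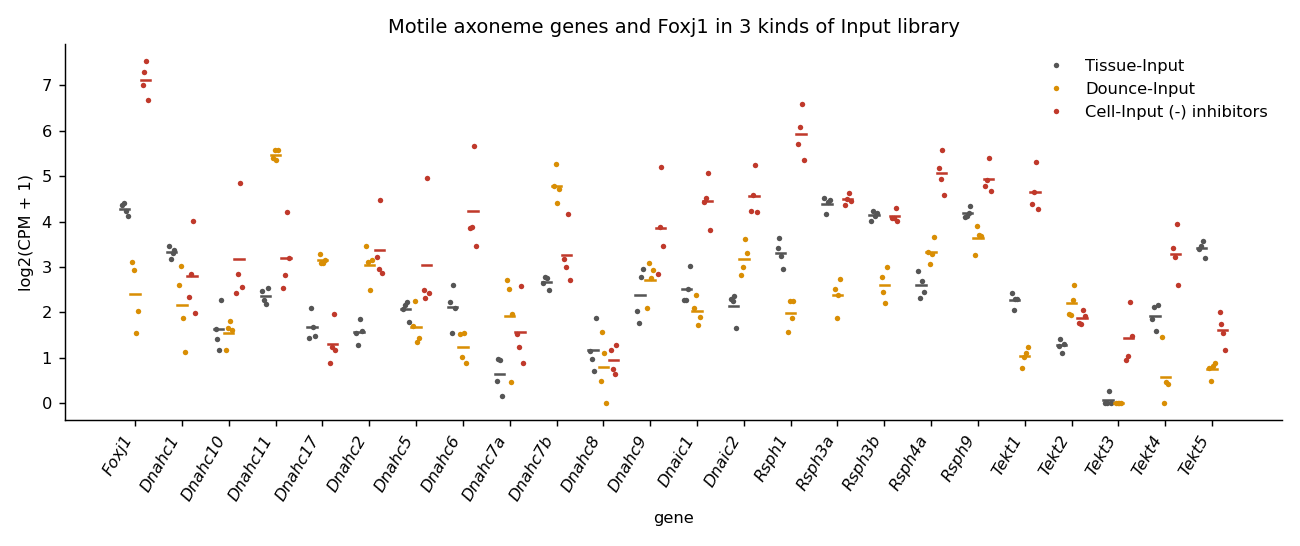
Level of *Foxj1* and each motile axoneme gene, as log2(CPM + 1), in Tissue-Input (grey), Dounce-Input (yellow) and Cell-Input (-) Inhibitors (red), 4 libraries each. Points are libraries and bars are group means. Dounce-Input lies lowest for *Foxj1*, *Rsph1*, *Tekt1* and *Tekt5*, and highest for *Dnahc11*, *Dnahc7b* and *Dnahc17*.

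Among the trafficking genes *Ift80*, of the anterograde complex, was at 15.9, 17.5, 18.3 and 17 CPM in Tissue-Input and at 72.8, 83.0, 82.8 and 76 CPM in Dounce-Input (2.20 ± 0.154, adjusted p = 1.66e-10). *Bbs2*, a BBSome subunit, rose by 1.56 ± 0.160 (adjusted p = 3.83e-08) and *Ift88* by 1.21 ± 0.174 (adjusted p = 3.89e-06). *Ift57* fell from 53.9, 52.9, 53.9 and 62.4 CPM to 22.7, 22.1, 19.6 and 20.3 CPM (-1.39 ± 0.161, adjusted p = 2.06e-07). Neither *Ift80* nor *Ift57* overlapped between the groups. *Bbs4*, low in the enzymatic suspensions, was at 54.6, 66.4, 53.3 and 53.5 CPM in Dounce-Input and did not pass (-0.17 ± 0.130, adjusted p = 0.233), and *Ift172* was at 54.8, 58.6, 48.1 and 40.7 CPM (-0.03 ± 0.141, adjusted p = 0.856).

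Set against the enzymatic suspension, which also serves as the group compared with Tissue and with Cell (+) Inhibitors above, Dounce-Input had 9 members higher and 19 lower (28.8% and 28.1% of all genes), and 12 higher and 17 lower without replicate 3 of the suspension. *Foxj1* was lower by 4.76 ± 0.261 on the log2 scale (adjusted p = 4.94e-12), and 16 of 24 motile axoneme genes fell while 3 rose (*Dnahc11*, *Dnahc17* and *Dnahc7b*). All 11 ependymal, 14 choroid plexus, 6 astrocyte and 4 endothelial markers fell, as did 2 of 5 oligodendrocyte and 5 of 6 microglia markers, and all 5 neuron markers rose. *Bbs4* rose by 1.58 ± 0.137 (adjusted p = 2.90e-09).

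In Dounce-TRAP compared with Tissue-TRAP 3 of 41 members rose and 12 fell (23.2% and 27.1% of all genes). *Foxj1* was at 15.5, 9.24, 10.7 and 9.17 CPM in Tissue-TRAP and at 6.13, 1.4, 1.49 and 4.47 CPM in Dounce-TRAP (-1.73 ± 0.416, adjusted p = 0.00122), and *Dnahc11* was at 1.12, 2.73, 1.62 and 2.79 CPM and then at 7.20, 9.79, 11.2 and 8.63 CPM (2.15 ± 0.399, adjusted p = 0.000105). For both genes the groups did not overlap, and the direction was that of Input. Of the markers 5 of 8 ependymal, 10 of 13 choroid plexus, 4 of 6 astrocyte, 5 of 5 neuron and 3 of 4 endothelial fell, and 1 choroid plexus, 3 of 5 oligodendrocyte and 6 of 6 microglia markers rose.

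Between Dounce-TRAP and Dounce-Input 3 members were higher and 18 lower (20.8% and 26.7% of all genes). The 3 were *Bbs9* (1.73 ± 0.162, adjusted p = 6.34e-11), *Rsph3b* (1.45 ± 0.225, adjusted p = 1.37e-06) and *Rsph3a*, the copies that share reads. *Foxj1* did not pass (-0.25 ± 0.421, adjusted p = 0.608), and Dounce-TRAP depth was the lowest of all groups. Of the markers 3 of 11 ependymal, 7 of 14 choroid plexus, 2 of 6 astrocyte, 4 of 5 oligodendrocyte, 4 of 5 neuron and 1 of 4 endothelial were lower in TRAP, and 1 ependymal, 1 endothelial and 6 of 6 microglia markers higher.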

How the data were processed

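Poly(A) libraries that keep the strand were sequenced, and the authors used Strand NGS v4.0 to trim and align reads to mm10, remove duplicates and count per gene. The deposited expected counts are mostly not whole (33.2% of values were whole in the sorting table, 20.8% in the inhibitor and Dounce table) and were rounded. The deposited log2 values, made by the authors with DESeq2 and baselined to Tissue-Input, served only for an alternative with limma, and an earlier table of 24 of the same libraries only for an alternative in comparisons among Tissue and the suspensions with and without inhibitors. The 80 libraries fall into 20 groups by their labels. Each table was fitted on its own with edgeR 4.0.16 in R 4.3.3 (quasi-likelihood test, TMM scaling, Benjamini-Hochberg adjustment over all genes tested, 19 comparisons), on genes with more than 5 counts in every library of at least 1 group. Each fraction had 1 fit over all its groups, and TRAP against Input was fitted over both fractions. Calls needed an adjusted p below 0.1 and a fold change above 2. The models were tested on simulated counts. Alternatives were limma 3.58.1 on those log2 values, DESeq2 1.42.0, other filters and scalings, fits to the compared groups alone, the mouse as a block and leaving out each library in turn. The main fits used the group only and were not paired. In the alternative with the mouse as a block, libraries were paired by the mouse numbers in their titles. This was done for Tissue with Cell of the sorting experiment, Cell (+) with Cell (-) Inhibitors, and TRAP with Input. Some sorts also shared mice, but the comparisons that use the sorts were not run with this block. Replicate numbers otherwise do not mark mice. Deviations of paired libraries correlated between 0.405 and 0.501 for Cell-TRAP with Cell-Input, but only between 0.000726 and 0.0787 for Cell-Input with Tissue-Input. None of 122 replicate pairs was a duplicate. Counting without molecular identifiers means that floors cover counting error only.

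Of the symbol rule, the digit was required after Ift only. The named genes were *Foxj1*, the 4 members of each family with the highest mean in Cell-Input of the sorting table, and members called against most of their family. Other members named, in counts of 5 or fewer or singly, were chosen after their values were seen. The members and the lists were chosen with earlier results of these data known. Promoter windows came from RefSeq.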

Additional observations from a re-analysis of the deposited data

Results flagged for a closer look

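Within groups of 4 or 5 libraries, Dixon's test at the 95% level picked out 1 library in 17 of 105 summed levels and in 18 of 159 gene levels, and chance alone gives about 1 in 20. Values are CPM, and no explanation was tested. FACSAria replicate 4 stood far above the other 3 FACSAria libraries in Input, at 90.4 for the motile axoneme sum, 24.3 for the dynein sum, 3.23 for the tektin sum, 23.4 for *Foxj1*, 7.34 for *Rsph1* and 1.66 for *Tekt1*. It did so in TRAP too, at 38, 12.0 and 1.04 for the same sums and 2.34 for *Foxj1*. Cell-Input replicate 2 stood low at 209 for the motile axoneme sum, 16.1 for the tektin sum, 66.1 for *Foxj1*, 7.88 for *Tekt1* and 12.5 for *Bbs4*. Cell-Input (-) Inhibitors replicate 3 stood high at 293 for the dynein sum and 155 for the Bbs sum, and its TRAP library at 276 for the Ift sum.

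*Dnahc17* stood high in Tyto-Input replicate 4 (10.9, with a dynein sum of 15.9) and in autoMACS-TRAP replicate 4 (2.81, with a dynein sum of 6.67 and a tektin sum of 1.04). The smaller departures were *Tekt5* in Tissue-Input replicate 3 (9.02), *Ift172* in Cell-Input replicate 1 (47), *Bbs9* in Tyto-TRAP replicate 4 (51.6), the Bbs sum of Tissue-TRAP replicate 3 (118) and the Ift sum of Tissue-TRAP replicate 2 (329.6), all in the sorting experiment. In the inhibitor and Dounce experiment they were *Foxj1* in Cell-Input (+) Inhibitors replicate 3 (95.9), *Bbs9* in replicate 1 (28.5) and *Ift57* in replicate 4 (30.4) of that group, *Ift57* in Tissue-Input replicate 4 (62.4) and Tissue-TRAP replicate 2 (33.1), and in Dounce-Input replicate 2 *Bbs4* (66.4) and the Ift sum (420.6).

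The TRAP to Input ratio differed between Cell and Tissue of the sorting experiment by the interaction test for 23 members, all lower in Cell. Among the named motile genes the log2 difference was -3.48 for *Dnaic2*, -3.44 for *Dnaic1*, -1.54 for *Dnahc9*, -1.15 for *Dnahc6* (which no longer passed without replicate 1 of Cell-Input, of Cell-TRAP, at -0.90, or of Tissue-TRAP, at -0.85), -3.31 for *Foxj1*, -3.06 for *Rsph1*, -3.08 for *Rsph4a* and -2.62 for *Rsph9*. Among the tektins it was -2.90 for *Tekt1*, -2.07 for *Tekt2*, -1.98 for *Tekt4* and -3.37 for *Tekt5*. Among the trafficking genes it was -1.31 for *Bbs1* and -1.998 for *Ift57*. *Tekt5* held 3 counts or fewer in all 4 Cell-TRAP libraries and *Tekt2* in 2 of them, so the sizes for these 2 genes depend on the prior count.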

How the results depend on the processing

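No result reversed. Of the counts of members called, 105 of 110 under other settings and 187 of 192 with 1 library left out stayed within 1.5 times the value reported. Among the 4 sorts, the 7 members called became 2 with limma, 0 when only the sorted groups were fitted, and 3 to 8 with 1 library left out, where FACSAria-Input replicate 4 gave the 3. The filter of the fit to the sorted groups left out all of the 7 but *Foxj1*, so its 0 is no test of the others. For Cell-TRAP against Tissue-TRAP limma called 25 in place of 16 (0 higher and 25 lower). For TRAP against Input in Tissue limma called 5 in place of 3, and leaving out 1 library gave 2 to 5 in the sorting experiment and 2 to 5 in place of 4 in the other. The libraries that moved these Tissue counts by over 1.5 times were Tissue-TRAP replicate 2 in the sorting experiment, and Tissue-TRAP replicates 1 and 3 and Tissue-Input replicate 2 in the other. With the replicate block 2 members passed between Cell-TRAP (+) and (-) Inhibitors in place of 0, and it moved no other count by over 1.5 times. The share of all genes passing with the block was not counted. The cause of these changes was not tested. Depth limits the motile axoneme genes in the sorted libraries, where many hold 3 counts or fewer.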

Other observations

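The tables hold 30 Cfap genes under older symbols, which the symbol rule did not take and which were matched to current names after the files were seen. In Cell-Input compared with Tissue-Input 19 rose and 1 fell (median log2 fold change 2.00), against 28.5% and 17.5% of all genes tested. In sorted Input compared with Cell-Input 1 rose and 26 fell, against 17.1% and 34.7%. In Cell-TRAP compared with Cell-Input 0 rose and 26 fell, against 14.9% and 33.2%. In Dounce-Input compared with Tissue-Input 5 rose and 9 fell (median -0.65), against 28.7% and 21.4%.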
